A study of Mus musculus with 8 samples.

Results

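The 36 genes described here carry fatty acids into liver cells, burn them in mitochondria and peroxisomes, or change the use of fuel under PPAR-alpha, the nuclear receptor that senses fatty acids. They were taken from a given list. Each gene was read by 1 probe, the brightest of its probes on the array by mean log2 signal. All 36 were on the array, with 55 probes, and all were among the 22199 genes tested. Their probes stood well above background in all 16 RNA pools.

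Liver RNA of ICR scid mice, which lack mature T and B cells, was taken at 8 weeks of age and hybridised in pools, 2 to a two-colour array. The 4 comparisons had 2 arrays apiece, on separate pools with the dyes exchanged. Untreated males (5 mice in each pool) were set over untreated females (5 in each). Mice given Adeno-Cux2, an adenovirus that carries the homeobox gene Cux2, were set over mice given the control adenovirus Adeno-CMV. Females were studied at day 5 (pools of 4 and 4 mice against 4 and 3). Males were studied at day 5 (6 and 6 against 6 and 7) and day 3 (5 and 6 against 5 and 6). The treated mice of both arms thus carried a virus, and the untreated mice carried none. The female arrays are female by title and sex label, although their stated purpose names males. Values are log2 ratios on the replicate 1 array and then the replicate 2 array, followed by the estimate of a model over all arrays with its standard error (n = 2 arrays). Calls were made where limma's adjusted p was under 0.05. Every p rests on the spread between pools, not between mice.

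Cux2 itself, read by its brightest probe, stood at 0.60 and 0.60 in males at day 5 and at 0.39 and 0.58 in males at day 3, and at −1.74 and −2.02 in untreated males over females. In the female pools labelled Adeno-Cux2 it was lower on both arrays, at −0.58 and −0.65 (−0.61 ± 0.088, adjusted p = 0.00451). That goes against the label. Whether the probe reads the virus's copy is not stated, so these pools are named here by their label, and every female direction below rests on it. Green medians ran over the arrays between 343 and 442 and red medians between 430 and 512, and 68.2% to 80.1% of spots stood well above background in a channel. All 12 named hepatocyte markers on the array were above background. Summed signals of exocrine pancreas markers were 945 to 2591 in 12 pools, and higher in 4: 32888 in untreated males (replicate 2), 228710 in females labelled Adeno-Cux2 and 9940 in Adeno-CMV females (both replicate 1), and 16478 in Adeno-Cux2 males at day 3 (replicate 2).

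Fatty acids that reach the liver are taken up by membrane transporters, bound by fatty acid-binding proteins and activated to acyl-CoA. Carnitine carries the acyl chain into the mitochondrion, where repeated cycles of oxidation, hydration, oxidation and cleavage release acetyl-CoA for energy or ketone bodies, while peroxisomes shorten the longest chains. PPAR-alpha pairs with the retinoid X receptor on a direct repeat of the half-site AGGTCA with 1 base between the copies, and in fasted mouse liver it switches many of these genes on together. Cux2 is known as a transcription factor with higher expression in female than in male mouse liver.

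That repeat was looked for in the promoter table of RefSeq (GRCm38.p6), which gives 250 bases before and 50 after each start. The search counted 35 promoters for 30 of the 36 genes. The genes without a counted promoter were Decr1, Acaa2, Vnn1, Cpt1b, Angptl4 and Crat. Acaa2 was left out of the count, so whether the table holds a promoter for it is not shown. The shares below are those of the 35 counted promoters and do not cover these genes. A repeat with at most 2 mismatches over its 12 fixed letters, on either strand, lay in 5 of the 35 promoters (14.3%), against 3.86% of all 32851 promoters. At most 1 mismatch was met by 1 of the 35 (2.86%), against 0.554% of all. The half-site alone, which every exact repeat also holds, was in 8 of 35 (22.9%) and in 16.3% of all. The 5 genes were Fabp1, Cd36, Plin2, Slc25a20 and Creb3l3. Sequence is given for those of them that were called in a treated comparison, since 2 were lower and 2 higher in males at day 3. The capitals mark the repeat, the strand is that of the gene, and the bases up to the start are printed. Fabp1 (chr6:71199629-71199878, plus strand) has 1 mismatch, and the match begins at position −67 from the start. Cd36 (chr5:17835897-17836146, minus strand) and Plin2 (chr4:86670060-86670309, minus strand) have 2 mismatches each, at −63 and −225. In Slc25a20 (chr9:108662142-108662154, plus strand) the match lies just past the start, and only the repeat is given.
Fabp1: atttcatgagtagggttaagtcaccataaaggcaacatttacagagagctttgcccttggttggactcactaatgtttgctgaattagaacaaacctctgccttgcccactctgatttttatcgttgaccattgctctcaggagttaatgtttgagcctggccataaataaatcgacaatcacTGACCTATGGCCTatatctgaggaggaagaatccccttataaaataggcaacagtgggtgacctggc
Cd36: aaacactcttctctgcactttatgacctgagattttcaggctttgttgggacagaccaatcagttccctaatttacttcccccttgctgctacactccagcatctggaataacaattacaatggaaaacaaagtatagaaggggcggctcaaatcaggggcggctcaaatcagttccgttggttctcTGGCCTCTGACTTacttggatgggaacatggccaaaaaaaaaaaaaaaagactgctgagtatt
Plin2: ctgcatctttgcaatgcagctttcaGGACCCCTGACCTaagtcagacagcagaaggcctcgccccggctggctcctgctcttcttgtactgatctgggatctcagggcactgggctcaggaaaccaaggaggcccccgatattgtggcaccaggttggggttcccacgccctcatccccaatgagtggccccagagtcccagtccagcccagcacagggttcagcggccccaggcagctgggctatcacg
Slc25a20: AGGTGAAAGGTCG
A match of letters describes the window and is not a known site.

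Fewer members were called in untreated mice and in females than in males at day 3. In untreated males 2 of the 36 genes were higher than in females and 8 lower, with a median log2 ratio of −0.15. Over all genes 4.92% were called higher and 6.14% lower, with a median of −0.007. In the female pools labelled Adeno-Cux2 2 members were higher and 8 lower (median −0.17), against 12.8% and 6.31% of all genes. Day 5 males had 4 higher and 12 lower (median −0.16), against 13.9% and 4.96%. Day 3 males had 11 higher and 15 lower (median −0.13), against 23.7% and 20.3%. The medians of all genes in the 3 treated comparisons lay between −0.0024 and 0.0093. As shares of the list, 22.2%, 22.2%, 33.3% and 41.7% of the members were called lower in untreated males, treated females, day 5 males and day 3 males, above the share of all genes each time, while the shares called higher (5.56%, 5.56%, 11.1% and 30.6%) stood on both sides of it. Each count rests on 2 arrays and moved when an array of the same comparison was left out, and some moved without an array of another. The number called over all genes moved as well, so this is no trait of the members. Without either male day 5 array 5 were called in untreated males, and without either male day 3 array 10 in day 5 males. Without the dye term 15 of the 62 calls ended: those of Ehhadh, Fabp1, Plin2 and Pdk4 in untreated males, Acadm and Ehhadh in females, Acaa2, Decr1, Acaa1a, Acaa1b, Ehhadh, Acsl1 and Fabp1 in day 5 males, and Hadh and Fabp1 in day 3 males. Since these are extracts of whole liver, fewer hepatocytes and less RNA per hepatocyte cannot be told apart.

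**Figure D1:**
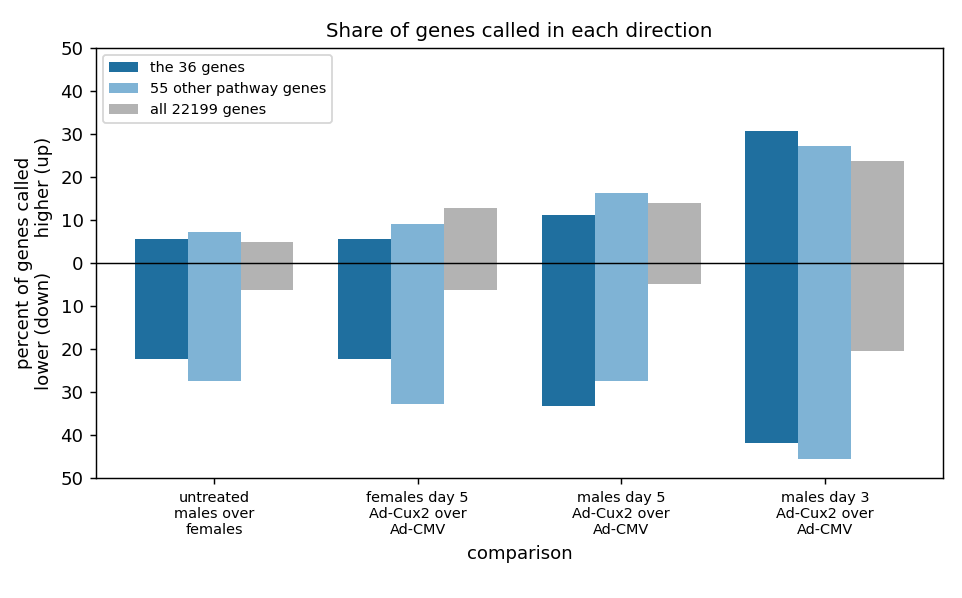
Percent of genes called higher (bars up from 0) and lower (bars down from 0) in each comparison, for the 36 genes, 55 other genes of the pathway and all 22199 genes tested; each bar is a share of its list and has no error bar. The lower calls of the 36 genes reach 41.7% in males at day 3, against 20.3% of all genes.

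Marker genes of other cells also moved. Macrophage markers were higher in 12 of 16 in the female pools labelled Adeno-Cux2, 14 of 16 in males at day 5 and 6 of 16 in males at day 3, where another 6 were lower, and all 8 neutrophil markers were higher in each of the 3. Of 6 cholangiocyte markers 5, 3 and 3 were higher in these comparisons and none lower. In untreated males 7 macrophage and 4 neutrophil markers were lower. Of the 12 hepatocyte markers, 5 were higher and 1 lower in females labelled Adeno-Cux2, 5 higher and 1 lower in males at day 5, and 2 higher and 6 lower in males at day 3. None of the 7 adipocyte markers tested was called in any comparison, and Plin1, Lep and Ucp1 were above background in no treated pool. The part of these markers in the results below was not tested, also where their values are given beside a gene.

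Taken over comparisons, 5 genes were called in none, 11 in 1, 11 in 2, 7 in 3 and 2 in all 4. Slc25a20, Acadvl and Decr2 were lower and Ehhadh and Ucp2 higher in all 3 treated comparisons. The same tally was not made over all genes, so these counts cannot be read as a trait of the list. The 16 members called in males at day 5 and the 26 called at day 3 shared 13 (81.2% and 50%), all in the same direction. Over all genes 85.4% and 36.6% of the calls were shared, 97.2% of them in the same direction. Females labelled Adeno-Cux2 shared 6 calls with day 5 males, all in the same direction (99.2% over all genes), and 8 with day 3 males, of which 5 went the same way (94.8% over all genes) and Cpt1b, Cd36 and Fgf21 did not. Untreated males shared 4 calls with the females, 5 with day 5 males and 8 with day 3 males, of which 2, 4 and 5 went in opposite directions. Over all genes 30.2%, 10.8% and 22.9% of the calls shared with untreated males had the same direction. Between untreated males and day 5 males, Ehhadh, Pdk4 and Ucp2 were lower in untreated males and higher with Adeno-Cux2, Fabp1 was higher in untreated males and lower with Adeno-Cux2, and Vnn1 was lower in both.

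**Figure D2:**
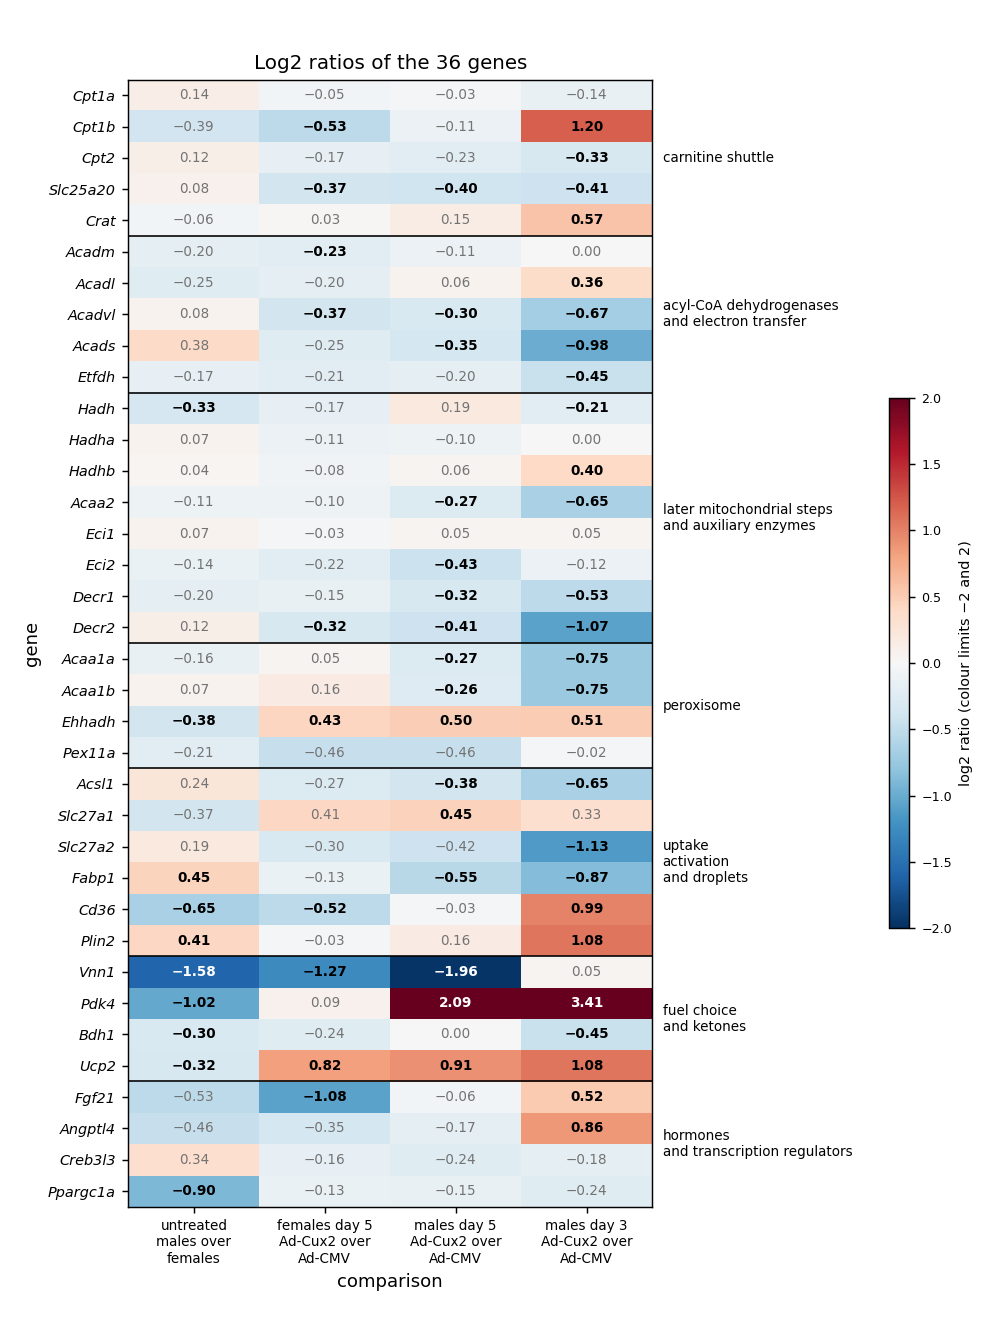
Log2 ratios (colour, red above 0 and blue below 0) of the 36 genes in rows, by role, and the 4 comparisons in columns; numbers are model estimates, bold where the adjusted p was under 0.05. The male day 3 column holds 26 of the 62 bold values. Over all genes tested, 9780 were called in males at day 3, against 2457 to 4249 in the other comparisons.

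Carnitine shuttle genes split at day 3. Cpt1a, the liver form of carnitine palmitoyltransferase 1 that sets the rate of entry, was called in no comparison, with estimates of 0.14 ± 0.15 in untreated males, −0.053 in females labelled Adeno-Cux2, −0.028 in males at day 5 and −0.14 in males at day 3. The probe of Cpt1b, the form known from muscle, was the dimmest of the 36. In males at day 3 Cpt1b rose, with log2 levels of 9.43 and 9.40 in the Adeno-Cux2 pools, against 8.26 and 8.17 in the Adeno-CMV pools (1.20 ± 0.12, 2.30-fold, adjusted p = 0.000302), and a further probe gave 1.17. None of the 11 skeletal muscle markers tested was called there, and their summed signals were 1889 and 3631 in the Adeno-Cux2 pools, against 2038 and 2568 in the Adeno-CMV pools. In the female pools labelled Adeno-Cux2 Cpt1b was lower, at −0.26 and −0.79 (−0.53 ± 0.12, adjusted p = 0.0235), while the further probe gave −0.27 (adjusted p = 0.11 in limma over probes). There 8 of the 11 muscle markers were also lower, with sums of 1951 and 2778 in those pools, against 4443 and 22139 in the Adeno-CMV pools, and the array with the larger gap was the one with the lower Cpt1b value. Its call ended without the replicate 2 array (adjusted p = 0.276), and the part of the muscle markers was not tested.

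Slc25a20, the carnitine-acylcarnitine translocase of the inner membrane, was lower on each of the 6 treated arrays. It stood at −0.34 and −0.41 in females labelled Adeno-Cux2 (−0.37 ± 0.092, adjusted p = 0.0339), −0.44 and −0.35 in males at day 5 (−0.40, adjusted p = 0.0274) and −0.45 and −0.36 in males at day 3 (−0.41, adjusted p = 0.0115). In untreated males it stood at 0.26 and −0.097, on both sides of 0. Cpt2, which frees the acyl chain from carnitine inside, fell in males at day 3 (−0.30 and −0.36) and missed the threshold at day 5 (−0.24 and −0.21, adjusted p = 0.0561). Crat, carnitine acetyltransferase, which buffers short acyl groups, rose in males at day 3 (0.59 and 0.55, adjusted p = 0.00299) and was uncalled elsewhere.

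The acyl-CoA dehydrogenases, which start each cycle on chains of given length, did not move as 1 group. Acads, for short chains, fell by 0.98 and 0.99 in males at day 3 (−0.985 ± 0.095, 1.98-fold lower, adjusted p = 0.000285) and by 0.33 and 0.37 at day 5 (adjusted p = 0.045). Acadvl, for very long chains, was lower in all 3 treated comparisons, at −0.31 and −0.43 in females labelled Adeno-Cux2, −0.37 and −0.23 in males at day 5 and −0.56 and −0.79 in males at day 3 (−0.67 ± 0.078, adjusted p = 0.000633). Acadl, for long chains, rose at day 3 instead (0.33 and 0.39, adjusted p = 0.00853). Acadm, for medium chains, was called in the females labelled Adeno-Cux2 alone, at −0.10 and −0.36 (adjusted p = 0.0467), and whether that differs from males was tested only at day 5 (−0.12 ± 0.089 for females minus males, adjusted p = 0.752). Etfdh, which passes the electrons to the respiratory chain, fell in males at day 3 (−0.49 and −0.41, adjusted p = 0.002).

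Of 8 genes for later steps of the cycle and for unsaturated chains, the peroxisomal Decr2 among them, 4 were lower in males at day 5 and 4 lower and 1 higher at day 3. Decr2, the 2,4-dienoyl-CoA reductase of peroxisomes, showed the lowest ratio of them, at −1.12 and −1.02 in males at day 3 (−1.07 ± 0.085, 2.10-fold lower, adjusted p = 0.000134). In males at day 5 it stood at −0.41 and −0.42, and in females labelled Adeno-Cux2 at −0.24 and −0.41 (adjusted p = 0.0169 and 0.0416). Decr1, its mitochondrial counterpart, fell in males at day 3 (−0.73 and −0.33) and, close to the threshold, at day 5 (−0.29 and −0.34, adjusted p = 0.0497). Acaa2, the thiolase that cleaves the chain, fell in males at day 3 (−0.41 and −0.88, adjusted p = 0.000298) and at day 5 (−0.086 and −0.45, adjusted p = 0.0276).

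Hadha and Hadhb encode the 2 subunits of the trifunctional protein, which runs the later steps on long chains. Hadhb rose in males at day 3 (0.36 and 0.43, adjusted p = 0.00864), while Hadha stood at 0.041 and −0.040 there and was called nowhere. Hadh, for shorter chains, was lower in untreated males (−0.26 and −0.41, adjusted p = 0.0234) and in Adeno-Cux2 males at day 3 (−0.13 and −0.29, adjusted p = 0.0353). Eci2, an enoyl-CoA isomerase, fell in males at day 5 (−0.43 and −0.43, adjusted p = 0.033), and Eci1, another, was called nowhere.

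In peroxisomes the bifunctional enzyme Ehhadh rose in all 3 treated comparisons. It stood at 0.56 and 0.30 in females labelled Adeno-Cux2 (0.43 ± 0.083, adjusted p = 0.0144), 0.56 and 0.43 in males at day 5 (0.50, adjusted p = 0.00749) and 0.78 and 0.24 in males at day 3 (0.51, adjusted p = 0.00285). In untreated males it was lower than in females, at −0.19 and −0.56 (adjusted p = 0.0366). Of these 4 calls of Ehhadh, the one in males at day 3 alone held without the dye term. The peroxisomal thiolases Acaa1a and Acaa1b went the other way in males. At day 3 Acaa1a stood at −0.87 and −0.62 and Acaa1b at −0.63 and −0.87 (both −0.75, adjusted p = 0.000184 and 0.000205), and at day 5 Acaa1a stood at −0.34 and −0.20 and Acaa1b at −0.16 and −0.36, both called lower. In females labelled Adeno-Cux2 neither was called (0.049 ± 0.065 and 0.16 ± 0.067). The 2 thiolases are close relatives, so 1 probe may read both. Pex11a, which elongates and divides peroxisomes, was called nowhere, at −0.46 in both day 5 comparisons (adjusted p = 0.056 in females and 0.0572 in males).

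Uptake and storage genes held some of the widest gaps between days. Cd36, a fatty acid translocase, rose in males at day 3 (1.16 and 0.82; 0.99 ± 0.11, 1.99-fold, adjusted p = 0.000449) and stood at −0.14 and 0.083 in males at day 5. It was lower in females labelled Adeno-Cux2 (−0.46 and −0.57, adjusted p = 0.0175) and in untreated males (−0.49 and −0.81, adjusted p = 0.014), with a further probe in the same direction in each of these 3. Plin2, the coat protein of lipid droplets, rose in males at day 3 (1.26 and 0.89; 1.08 ± 0.097, 2.11-fold, adjusted p = 0.000221) and stood at 0.16 and 0.16 at day 5. Plin2 was also higher in untreated males than in females (0.65 and 0.17, adjusted p = 0.045).

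Slc27a2, a fatty acid transport protein that also activates very long chains, fell in males at day 3 (−1.18 and −1.09; −1.13 ± 0.21, 2.19-fold lower, adjusted p = 0.00458). Acsl1, the main acyl-CoA synthetase of liver, fell in males at day 3 (−0.49 and −0.81, adjusted p = 0.00132) and at day 5 (−0.078 and −0.67, adjusted p = 0.0301). In untreated males this probe was not called (0.24, adjusted p = 0.139). Its further, dimmer probes were higher there, at 0.80 and 0.58 (adjusted p = 0.0251 and 0.0245 in limma over probes). In males at day 3 they gave −0.51 and −0.395. Slc27a1, another transport protein, was called higher in males at day 5 (0.31 and 0.59, adjusted p = 0.0363), but its further, dimmer probe gave −0.059 and the mean of both was not called.

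Fabp1, the liver fatty acid-binding protein, had the brightest probe of the 36 and the widest gap between dyes. Replicate 1 lay above replicate 2 by 0.96 to 1.41 in all 4 comparisons, with a mean gap of 1.15, against a median absolute gap of 0.12 over the members. Fabp1 stood at −0.39 and −1.36 in males at day 3 (−0.87 ± 0.086, adjusted p = 0.000325), 0.009 and −1.12 in males at day 5 (−0.55, adjusted p = 0.00572) and 1.16 and −0.25 in untreated males (0.45, adjusted p = 0.0234). On replicate 2 it was lower in every comparison and on replicate 1 only at day 3, so the calls rest on the dye term, and all 3 ended when that term was left out. In females labelled Adeno-Cux2 it was not called (0.42 and −0.68).

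Pdk4, the kinase that shuts pyruvate dehydrogenase and so spares glucose when fat is burnt, had the highest ratio of the members in treated males. Its probe maps to chromosome 6, 5433441 to 5433500 on mm8. Normalized log2 levels at day 3 were 13.93 and 13.34 in the Adeno-Cux2 pools, against 9.86 and 10.6 in the Adeno-CMV pools. At day 5 they were 11.72 and 11.5 in the Adeno-Cux2 pools, against 9.51 and 9.53 in the Adeno-CMV pools. The pools of the 2 treatments thus did not overlap on either day. The ratios were 4.07 and 2.74 at day 3 (3.41 ± 0.20, 10.6-fold, adjusted p = 4.93e-05) and 2.20 and 1.97 at day 5 (2.09 ± 0.20, 4.25-fold, adjusted p = 0.00079). The female pools labelled Adeno-Cux2 stood at 12.2 and 11.27, against 11.61 and 11.69 with Adeno-CMV, on both sides of them (0.086 ± 0.20, adjusted p = 0.83). Untreated males were lower than females, at −0.93 and −1.10 (−1.02, 2.02-fold lower, adjusted p = 0.0264), although the call ended without the replicate 1 array (adjusted p = 0.34).

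Vnn1, a pantetheinase that makes cysteamine and is a known PPAR-alpha target in mouse liver, was lower in untreated males and in both day 5 comparisons. Its probe lies on chromosome 10, 23594134 to 23594193 on mm8. Its log2 levels in males at day 5 were 11.02 and 11.27 with Adeno-Cux2, against 13.07 and 13.15 with Adeno-CMV (−1.96 ± 0.20, 3.90-fold lower, adjusted p = 0.000953). The female levels were 11.31 and 10.98 in the pools labelled Adeno-Cux2, against 12.22 and 12.62 with Adeno-CMV (−1.27, 2.41-fold lower, adjusted p = 0.00643). Untreated males had 10.27 and 10.1, against 11.45 and 12.09 in untreated females (−1.58, 3.00-fold lower, adjusted p = 0.00522). At day 3 the male pools of both treatments overlapped, at 12.22 and 12.2 with Adeno-Cux2, against 12.3 and 12.02 with Adeno-CMV (0.052 ± 0.20, adjusted p = 0.86). The female call ended without the replicate 2 array (adjusted p = 0.0902).

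Ucp2, a mitochondrial carrier of the inner membrane that is also expressed in macrophages, rose on every treated array. The ratios were 0.84 and 0.79 in females labelled Adeno-Cux2 (0.82 ± 0.066, 1.76-fold, adjusted p = 0.000663), 1.00 and 0.82 in males at day 5 (0.91, 1.88-fold, adjusted p = 0.000243) and 1.18 and 0.98 in males at day 3 (1.08, 2.11-fold, adjusted p = 5.5e-05). Untreated males were lower, at −0.31 and −0.33 (adjusted p = 0.0307). A further probe gave 0.68, 0.76, 1.00 and −0.094 in the same order of comparisons, and a dim probe above background in 6 of 16 pools gave 0.15, 0.049, 0.15 and −0.062. The summed signals of the 16 macrophage markers stood at 284446 and 279901 in females labelled Adeno-Cux2 against 115418 and 121890 with Adeno-CMV. They were 200388 and 235318 against 60379 and 73155 in males at day 5, and 146141 and 150436 against 63800 and 75668 in males at day 3. In untreated mice the sums were 79052 and 74142 in males, against 105291 and 99652 in females. At day 3 the list was split, with Gpnmb, Cd68, Lyz2, Ctss, Itgax and Csf1r higher, Clec4f, Vsig4, Timd4, Cd5l, Marco and Cd163 lower, and median log2 ratios of 0.27 and −0.046 on the 2 arrays. Whether macrophages carry the Ucp2 difference was not tested. Bdh1, which makes the ketone body beta-hydroxybutyrate, fell in males at day 3 (−0.40 and −0.50, adjusted p = 0.00234) and was lower in untreated males (−0.37 and −0.23, adjusted p = 0.0427).

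**Figure D3:**
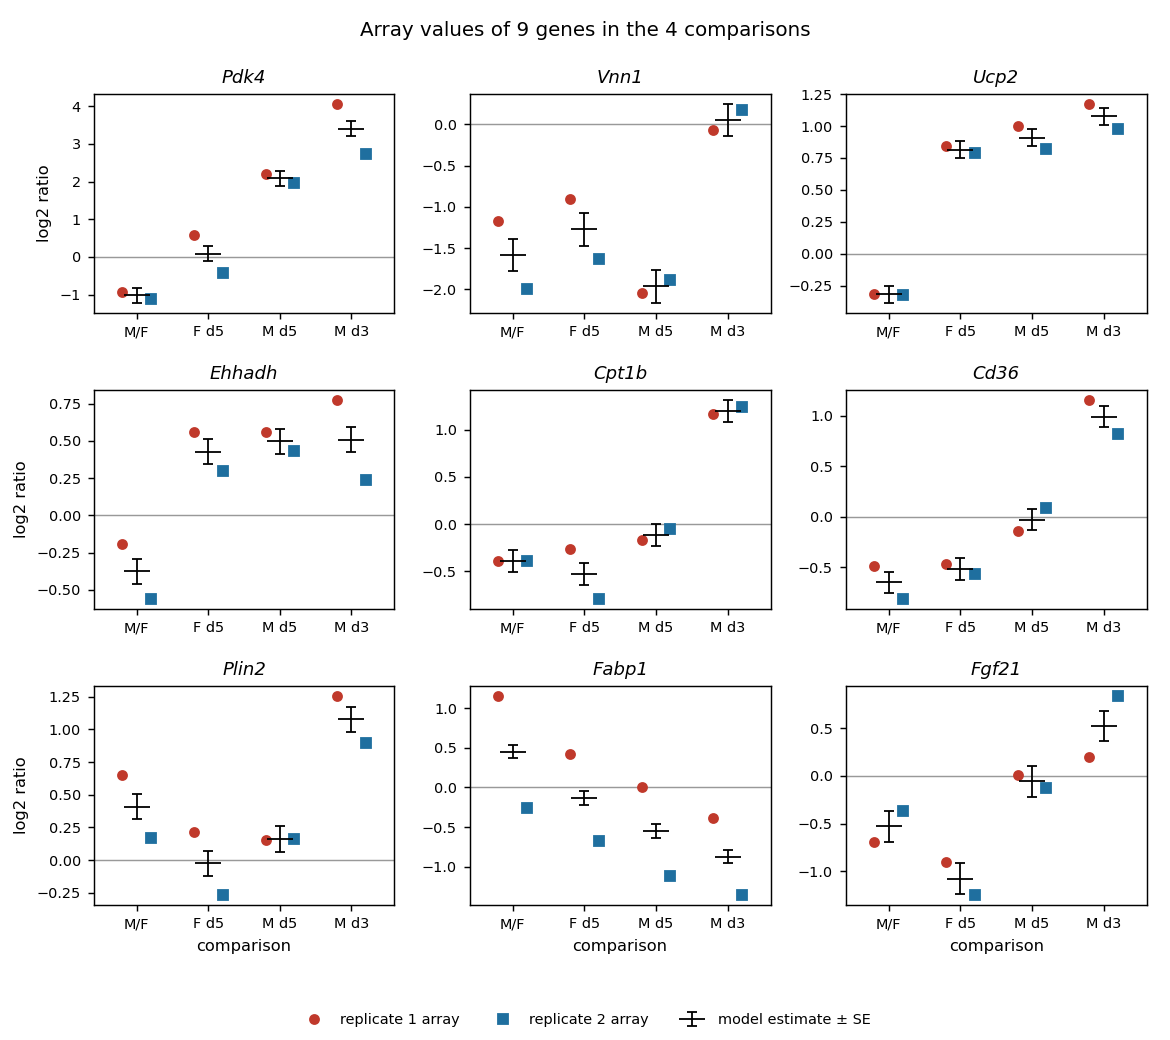
Log2 ratios of 9 genes on the replicate 1 array (red circles) and the replicate 2 array (blue squares), with the model estimate ± its standard error (black), for untreated males over females (M/F) and for Adeno-Cux2 over Adeno-CMV in females at day 5 (F d5), males at day 5 (M d5) and males at day 3 (M d3); each panel has its own vertical scale. Pdk4 lies at 3.41 in males at day 3 and 0.086 in females at day 5, and the 2 Fabp1 arrays lie apart in every comparison.

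Among hormones and regulators, Fgf21, a fasting hormone of the liver, was lower in females labelled Adeno-Cux2 (−0.91 and −1.25; −1.08 ± 0.16, 2.11-fold lower, adjusted p = 0.00538). In males it stood at 0.012 and −0.12 at day 5 and was called higher at day 3 (0.20 and 0.84, adjusted p = 0.0368), a call that ended without the replicate 2 array (adjusted p = 0.553). The female call ended without the replicate 2 array as well (adjusted p = 0.0687). Exocrine pancreas markers summed to 1052 and 16478 in the Adeno-Cux2 pools of males at day 3, against 945 and 1954 in the Adeno-CMV pools. In females the sums were 228710 and 1041, against 9940 and 2065. The part of these markers in the Fgf21 values was not tested. Angptl4, a secreted inhibitor of lipoprotein lipase, rose in males at day 3 (0.77 and 0.96; 0.86 ± 0.22, adjusted p = 0.0187). Ppargc1a, the coactivator PGC-1alpha, was lower in untreated males (−0.72 and −1.09; −0.90 ± 0.13, 1.87-fold lower, adjusted p = 0.00948) and by this probe was called in no treated comparison. In males at day 3 this probe gave −0.24, while a further, slightly dimmer probe gave −0.38 (adjusted p = 0.0346 in limma over probes). The further probe gave −0.082 in females labelled Adeno-Cux2, 0.025 in males at day 5 and −0.67 in untreated males. Creb3l3, a liver transcription factor that acts with PPAR-alpha, was called nowhere, with estimates of −0.24 to 0.34.

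The male responses at day 5 and day 3 were set against each other in the same model. Of the 36 genes 7 had a higher ratio at day 5 than at day 3 and 5 a lower one, against 8.11% and 4.83% of all genes. Vnn1 had the lowest difference (−2.02 ± 0.28, adjusted p = 0.00833), followed by Pdk4 (−1.32, adjusted p = 0.03), Cpt1b (−1.31, adjusted p = 0.00632), Cd36 (−1.02, adjusted p = 0.00945) and Plin2 (−0.92, adjusted p = 0.01). The 7 on the other side were Decr2, Acads, Acaa1a, Acaa1b, Acaa2, Bdh1 and Hadh, at 0.38 to 0.66, and each had a ratio below 0 at day 3 that was nearer 0 or above it at day 5. The arrays of these 2 days lay on different slides, so slide and day cannot be told apart. With median centring in place of loess the split was 0 higher and 6 lower, and over all genes it was 772 and 1323 in place of 1801 and 1072. The number called fell to 0 without either male day 5 array and to 2 without either male day 3 array.

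**Figure D4:**
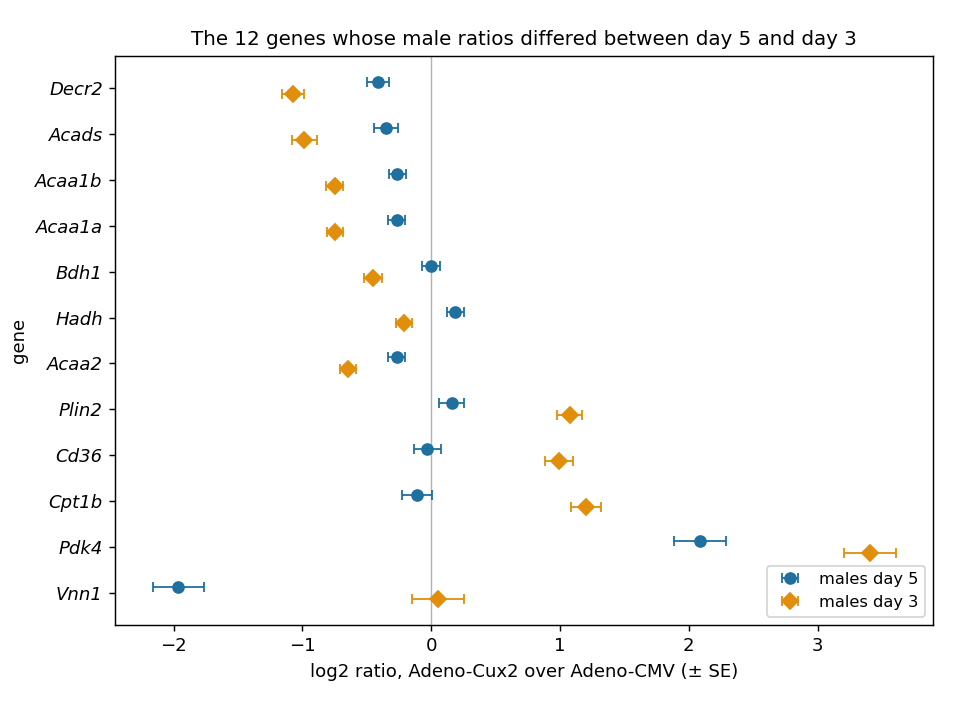
Log2 ratios of Adeno-Cux2 over Adeno-CMV in males at day 5 (blue circles) and day 3 (orange diamonds) with standard errors, for the 12 genes whose difference between the days had an adjusted p under 0.05. Of the 12, 5 had a lower ratio at day 5, and Vnn1 stood at −1.96 at day 5 and 0.052 at day 3.

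Between females and males at day 5 no member was called by limma. Of the 36, 10 had an unadjusted p under 0.05, a larger share than the 10.6% of all genes. Over all genes 0.036% were called higher in the female response and 0.171% lower. The widest member difference was that of Pdk4, at −2.003 ± 0.285 for females minus males (adjusted p = 0.0617), and with a dye term for each slide or with median centring Pdk4 was called. Fgf21 followed at −1.02 ± 0.23 (adjusted p = 0.152). These responses also came from different slides, and which of slide and sex they follow cannot be told apart.

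Other genes of the pathway were called lower more often than higher. Of 55 such genes, 4 were higher and 15 lower in untreated males, 5 and 18 in females labelled Adeno-Cux2, 9 and 15 in males at day 5, and 15 and 25 in males at day 3, with medians of −0.12, −0.205, −0.14 and −0.18. In that order, 27.3%, 32.7%, 27.3% and 45.5% were called lower, against 6.14%, 6.31%, 4.96% and 20.3% of all genes. The shares called higher were 7.27%, 9.09%, 16.4% and 27.3%, against 4.92%, 12.8%, 13.9% and 23.7%. Ppara, which encodes PPAR-alpha, fell in males at day 3 (−1.45 and −1.17; −1.31 ± 0.11, adjusted p = 0.00016) and in females labelled Adeno-Cux2 (−0.62 and −0.66, adjusted p = 0.00903), and missed the threshold in males at day 5 (−0.39 ± 0.11, adjusted p = 0.0513). Its coactivator gene Ppargc1b fell in males at day 3 (−1.10 ± 0.21).

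Other genes of the list fell by more than 2-fold in males at day 3. Cat, which encodes catalase, stood at −1.50 and −1.99 there (−1.74 ± 0.13, adjusted p = 0.000117) and at −0.34 and −0.96 in males at day 5 (−0.65, adjusted p = 0.0166). Scp2, a sterol carrier and thiolase, fell in all 3 (−0.49 in females, −0.54 in day 5 males and −1.24 in day 3 males) and was higher in untreated males (1.09). Acadsb (−1.49), Slc27a5 (−1.66) and Mgll (−1.06) were lower at day 3 as well.

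In the opposite direction, Cidec, a lipid droplet protein, rose in males at day 3 (2.52 and 2.28; 2.40 ± 0.14, adjusted p = 5.07e-05) and was called in no other comparison. Crot, which moves medium chains out of peroxisomes as carnitine esters, rose in females labelled Adeno-Cux2, day 5 males and day 3 males (0.64, 0.99 and 1.31), as did the thioesterase genes Acot1 (1.504 and 1.297, 1.05 and 0.95, 2.76 and 2.41 on the 2 arrays of each) and Acot3 (0.61, 1.91 and 2.20). Acot2 rose in males at day 5 and day 3 (1.42 and 2.74), as did Acot4 (0.94 and 1.18). Neither was called in the females (0.005 and 0.14). The difference between the sexes at day 5 was called for 0 of the 55 genes by limma. Of the 55, 14 had an unadjusted p under 0.05, a larger share than the 10.6% of all genes. Acsl4, an acyl-CoA synthetase, rose at day 3 (1.11), as did the fatty acid hydroxylase gene Cyp4a14 (2.21 and 0.68; 1.45 ± 0.35, adjusted p = 0.0145). These thioesterases are close relatives, and their probes may read each other.

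Several genes outside the 36 differed by more than 2-fold between the untreated sexes. Cyp4a14 stood at −3.10 ± 0.35, Acot3 at −3.07 ± 0.16, Acot4 at −1.88, Cyp4a31 at −1.72, the peroxisomal transporter Abcd2 at −1.71, Plin4 at −1.46, Lpin1 at −1.45, Hacl1 at −1.30 and Cyp4a10 at −1.18 in males over females. In males at day 5 Cyp4a14 (2.18), Cyp4a31 (1.103), Cyp4a10 (0.89) and Abcd2 (0.79) were higher with Adeno-Cux2. In the female pools labelled Adeno-Cux2 Cyp4a10 and Cyp4a31 were lower (both −0.73). Lpin1 and Plin4 were lower in both day 5 comparisons, at −0.84 and −1.01 in females and −0.98 and −0.71 in males.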

How the data were processed

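Two-colour arrays of liver RNA pools were processed again from the scanner files. The files were made with Agilent Feature Extraction 9.5.3.1 for the slide with the untreated and male day 5 pools and 10.7.1.1 for the slide with the female and male day 3 pools, with probe positions on mm8, per the file headers. Each deposited intensity is the median signal of a spot or of its local background in 1 channel. The authors' deposited log10 ratios, in the scanner files and, within 5e-06, in the series matrix with the sign turned on replicate 2, served as an alternative. Deposited flags, other values of 0 or 1 per the file headers, mark spots above background, saturated spots and outliers.

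From these, limma 3.58.1 in R 4.3.3 corrected the background (normexp, offset 50) and gave log2 ratios after loess within each array, with control and outlier spots at weight 0 and outlier spots left out. For levels per pool, average intensities were also quantile-normalized between arrays. Of 41174 probes 33335 were kept (above background in 1 channel on both arrays of a comparison), giving 22199 genes by their brightest probe, named through a table of mouse genes (24375 probes by accession, 6301 by symbol, 2426 by synonym, 8072 as filed). limma was fitted to all 8 arrays with 1 coefficient a comparison and a dye term, which equals the replicate number, leaving 3 residual and 3.62 prior degrees of freedom; tests were 2-sided with Benjamini-Hochberg adjustment over all genes. In deviations from the comparison means, same-numbered arrays correlated above 0.1 in 4 of 6 pairs (−0.095 to 0.296). The script was tested on simulated data. The design text gives 11 untreated females and 3 experiments, where the labels give 10 and 4.

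The members, lists and tests were chosen with earlier results of these data known. All 36 members are accounted for, called ones with both array values or the levels of the pools, and other pathway genes are named if called at 2-fold or more in a comparison, except for some that are not reported here. The alternatives were no background subtraction, another offset, the deposited ratios, median centring, other dye terms, each slide or comparison alone, an intensity trend, other probe filters, the mean of all probes, and leaving out each array. Precision is limited by the 2 arrays of each comparison.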

Additional observations from a re-analysis of the deposited data

Results flagged for a closer look

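Between day 5 and day 3 in males, 12 of the 36 ratios of Adeno-Cux2 over Adeno-CMV differed in a test of the difference itself. The log2 differences, day 5 minus day 3, were −2.02 for Vnn1, −1.32 for Pdk4, −1.31 for Cpt1b, −1.02 for Cd36, −0.917 for Plin2, 0.38 for Acaa2, 0.40 for Hadh, 0.45 for Bdh1, 0.48 for Acaa1a, 0.49 for Acaa1b, 0.63 for Acads and 0.66 for Decr2. Both days had 2 arrays each, on different slides, so slide and day cannot be told apart. Under every change of processing that could be fitted, Cpt1b alone of the 12 stayed called. Hepatocyte markers stood higher at day 5 than at day 3 in 6 of 12, macrophage markers in 12 of 16 and neutrophil markers in 6 of 8, and their part in these differences was not tested.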

How the results depend on the processing

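No member's call changed direction under any alternative. Calls that held in every one were Vnn1 in untreated males, Vnn1, Pdk4 and Ucp2 in males at day 5, Ucp2 in females, and 13 of 26 in males at day 3 (Cpt1b, Acadvl, Acads, Etfdh, Acaa2, Decr2, Acaa1a, Acaa1b, Acsl1, Cd36, Plin2, Pdk4 and Ucp2). Members called in untreated males, 10, numbered 5 with median centring, 5 without background subtraction, 5 with an offset of 16, 2 with the 2 arrays alone and 1 with the software's log ratios. Day 5 males had 16, which became 10 with an offset of 16 and 5 with the software's ratios. In females the 10 became 5 with the 2 arrays alone and 4 with the software's ratios. For females minus males at day 5, 0 became 1 with a dye term for each slide and 1 with median centring. For day 5 minus day 3 the 12 became 6 with median centring and 1 with the software's ratios. Without the replicate block (the dye term) the counts were 6 in untreated males, 9 in males at day 5 and 7 for day 5 minus day 3, and 20 of the 74 calls of members ended, 15 in the 4 comparisons and 5 between days (Hadh, Acaa2, Acaa1a, Acaa1b and Pdk4). Leaving out 1 array at a time gave 1 to 10 in untreated males, 2 to 15 in females, 3 to 19 for day 5 males, 19 to 28 for day 3 males, 0 to 0 for females minus males and 0 to 14 for day 5 minus day 3. Without an own replicate 1 or replicate 2 the counts were 1 and 8 in untreated males, 5 and 2 in females, 3 and 3 for day 5 males and 19 and 19 for day 3 males. Without either male day 5 array 5 were called in untreated males, and without either male day 3 array 10 in day 5 males. The number called over all genes moved as well when an array was left out. The cause of these moves was not tested. Higher and lower calls of members with median centring were 0 and 5 in untreated males, 3 and 5 in females and 4 and 7 in males at day 5, and with the software's ratios 3 and 2 in males at day 5. Over all genes median centring gave 6085 higher and 2794 lower in males at day 3, in place of 5272 and 4508.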
